A study of Homo sapiens with 10 samples.

Results

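The transforming growth factor beta (TGF-beta) and bone morphogenetic protein (BMP) pathways switch on genes that act back on them, and 10 such genes were followed in HEK293T cells that overexpressed BRSK2 or BRSK1. The set held the inhibitory SMADs SMAD7 and SMAD6, the nuclear corepressors SKIL, SKI and TGIF1, the membrane protein PMEPA1, the zinc finger factor KLF10 and the ID proteins ID1, ID2 and ID3. They were chosen by name from knowledge of the pathways, with the kinase-against-control results of these libraries already known, so their values against the controls are a description and not independent evidence. All 10 were among the 58676 genes of the count tables, and all 10 were among the 16936 that passed the filter on low counts.

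In both pathways a ligand dimer brings type I and type II receptor kinases together, and the activated receptor phosphorylates SMAD proteins, which join SMAD4 and enter the nucleus. SMAD7 and SMAD6 are induced by this signalling and block it at the receptor. SKIL, SKI and TGIF1 recruit repressors to SMAD complexes, PMEPA1 sequesters receptor-activated SMADs, and the ID proteins, classical BMP targets, dimerise with basic helix-loop-helix factors and keep them off DNA.

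HEK293T is a transformed line derived from human embryonic kidney. The BRSK2 group had 3 libraries and the BRSK1 group 3, each from cells that overexpressed that kinase, a serine/threonine kinase of the AMPK-related family, for 24 h. The hcRED group had 2 libraries, from cells that overexpressed a red fluorescent protein for 24 h, and the Mock group had 2, whose handling the labels do not describe further. All groups were the same line in the same medium with serum, and no TGF-beta or BMP ligand is named among the treatments. The labels do not say whether replicates were separate cultures, so the p-values cover the spread among these samples alone, and that spread may be technical. These are bulk libraries, in which a smaller share of responding cells and a smaller response in each cell cannot be told apart.

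Library totals ran from 16516116 to 24304302 counts, and log2 CPM, the counts of a gene scaled to a fixed library size, correlated between every pair of libraries at 0.98 to 0.989 (Pearson, across genes). BRSK2 took 6.99%, 9.08% and 10.4% of the counts in BRSK2 replicates 1, 2 and 3 and BRSK1 took 4.72%, 6.52% and 6.96% in BRSK1 replicates 1, 2 and 3, while in the control libraries each took at most 0.0099%. All 6 genes listed as expressed by HEK293T passed the filter, with a summed level of 463.7 to 481.7 CPM in BRSK2, 443.3 to 455 in BRSK1, 373.5 to 387 in hcRED and 449.2 to 462.2 in Mock libraries. Of 18 markers of leukocytes, fibroblasts, endothelium and hepatocytes, PTPRC and APOB had no count in any library, and no list summed to more than 9.05 CPM in any library. CPM below are scaled by TMM factors.

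Promoter sequences of the members are given first, with the letters that SMAD proteins are known to bind. RefSeq promoters on GRCh38.p14, each 250 bases before to 50 bases after an annotated start, were given for 8 of the 10 genes, with 19 starts in all. No promoter was given for KLF10 or SKI. Promoters of SMAD7, PMEPA1 and ID3, which were higher with BRSK2, are shown beside that of SMAD6, which was not called. The choice is for display and does not stand for all members. SMAD7 and PMEPA1 have further annotated starts, and a single window of each is shown. Capitals mark the short SMAD-binding element, read as GTCTG or, from the other strand, as CAGAC, and in SMAD6 the palindrome GTCTAGAC.
SMAD7: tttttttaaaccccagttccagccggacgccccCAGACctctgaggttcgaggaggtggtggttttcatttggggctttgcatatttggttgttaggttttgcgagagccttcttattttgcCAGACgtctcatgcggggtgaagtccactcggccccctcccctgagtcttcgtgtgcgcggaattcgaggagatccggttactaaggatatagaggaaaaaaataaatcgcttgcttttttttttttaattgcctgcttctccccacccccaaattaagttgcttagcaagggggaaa
PMEPA1: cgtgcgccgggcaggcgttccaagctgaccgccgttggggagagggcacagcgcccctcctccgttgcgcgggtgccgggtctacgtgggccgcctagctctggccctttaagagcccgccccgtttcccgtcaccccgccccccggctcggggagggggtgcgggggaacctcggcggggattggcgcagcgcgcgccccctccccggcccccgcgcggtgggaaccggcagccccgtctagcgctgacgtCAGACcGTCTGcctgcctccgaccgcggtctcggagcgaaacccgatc
ID3: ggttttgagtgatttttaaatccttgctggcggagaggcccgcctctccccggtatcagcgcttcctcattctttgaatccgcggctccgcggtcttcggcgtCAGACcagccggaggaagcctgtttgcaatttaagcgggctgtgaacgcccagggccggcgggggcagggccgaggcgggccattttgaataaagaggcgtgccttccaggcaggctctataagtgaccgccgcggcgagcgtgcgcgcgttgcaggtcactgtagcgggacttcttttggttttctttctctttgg
SMAD6: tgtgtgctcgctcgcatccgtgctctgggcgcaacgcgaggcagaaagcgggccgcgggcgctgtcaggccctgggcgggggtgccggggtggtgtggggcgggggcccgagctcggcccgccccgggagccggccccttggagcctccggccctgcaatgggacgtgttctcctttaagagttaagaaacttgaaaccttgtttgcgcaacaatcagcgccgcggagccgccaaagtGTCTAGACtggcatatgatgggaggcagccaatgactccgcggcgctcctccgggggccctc

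The SMAD7 window shown lies at chr18:48950916-48951215 on the minus strand, wholly before the deposited gene start at 48950711. It holds the short element at positions -217 and -128, counted from the annotated start as 1, with no position 0. Of the other SMAD7 windows, that at 48949284-48949583 holds the short element at -193. The window at 48942758-48943057 holds none of the letters searched. The PMEPA1 window shown, at chr20:57709966-57710265 on the minus strand, holds the short element at 3 and 9 in opposite directions. The copy at 3 shares the letters CA with the end of a cyclic AMP response element, TGACGTCA, at -4. Of the other PMEPA1 windows, those at 57710528-57710827 and 57690637-57690936 hold the short element and that at 57711423-57711722 does not. The ID3 window, at chr1:23559452-23559751 on the minus strand, holds the short element at -147. The SMAD6 window, at chr15:66701986-66702285 on the plus strand, holds the palindrome at -12, the only one among the 19 member promoters. Searched on both strands of 35116 RefSeq promoters of the same length, the palindrome occurred in 0.202% and the short element in 45.3%. The short element occurred in 12 of the 19 member promoters, those of SMAD7, SKIL, PMEPA1, ID3 and TGIF1, and such a match describes the letters only. The GC-rich element GGCGCC (19.2% of all promoters) occurred in promoters of SKIL and PMEPA1, and the AP-1 element TGANTCA (7.71%) in those of TGIF1. TGACGTCA (1.85%) occurred in SKIL and PMEPA1, and TGACG (24.6%), which TGACGTCA contains, in SKIL, PMEPA1 and ID3. The promoters of ID1 and ID2 held none of the letters searched. The short element thus occurred in SKIL and TGIF1, which were not called, and was absent from ID1, which was called with BRSK2.

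With BRSK2, SMAD7 and KLF10 rose most among the 10 genes, ID3, PMEPA1 and ID1 rose by less, and 5 did not pass the threshold. A gene is called here when edgeR's quasi-likelihood test gave a Benjamini-Hochberg adjusted p under 0.05 over all tested genes. By that rule 5 of the 10 members were higher with BRSK2 and the other 5 were not called, while 4.77% of all tested genes were called higher and 3.05% lower. In 6 of the 10, the 5 called genes and TGIF1, all 3 BRSK2 libraries stood above all 4 control libraries, which was so of 9.09% of tested genes. The median log2 fold change of the members was 0.31, against 0.00 over all tested genes. With BRSK1 the same leading genes were higher: SMAD7, KLF10 and PMEPA1 were called, 3 of 10, where 3.77% of tested genes were called higher and 2.66% lower. All 3 BRSK1 libraries stood above all 4 controls for 5 members, SMAD7, KLF10, PMEPA1, ID1 and ID3, and for 9.93% of tested genes, and the median of the members was 0.22, against 0.00. The kinases were compared with the same 4 control libraries, so the values for both are set side by side and their likeness is not a result.

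**Figure D1:**
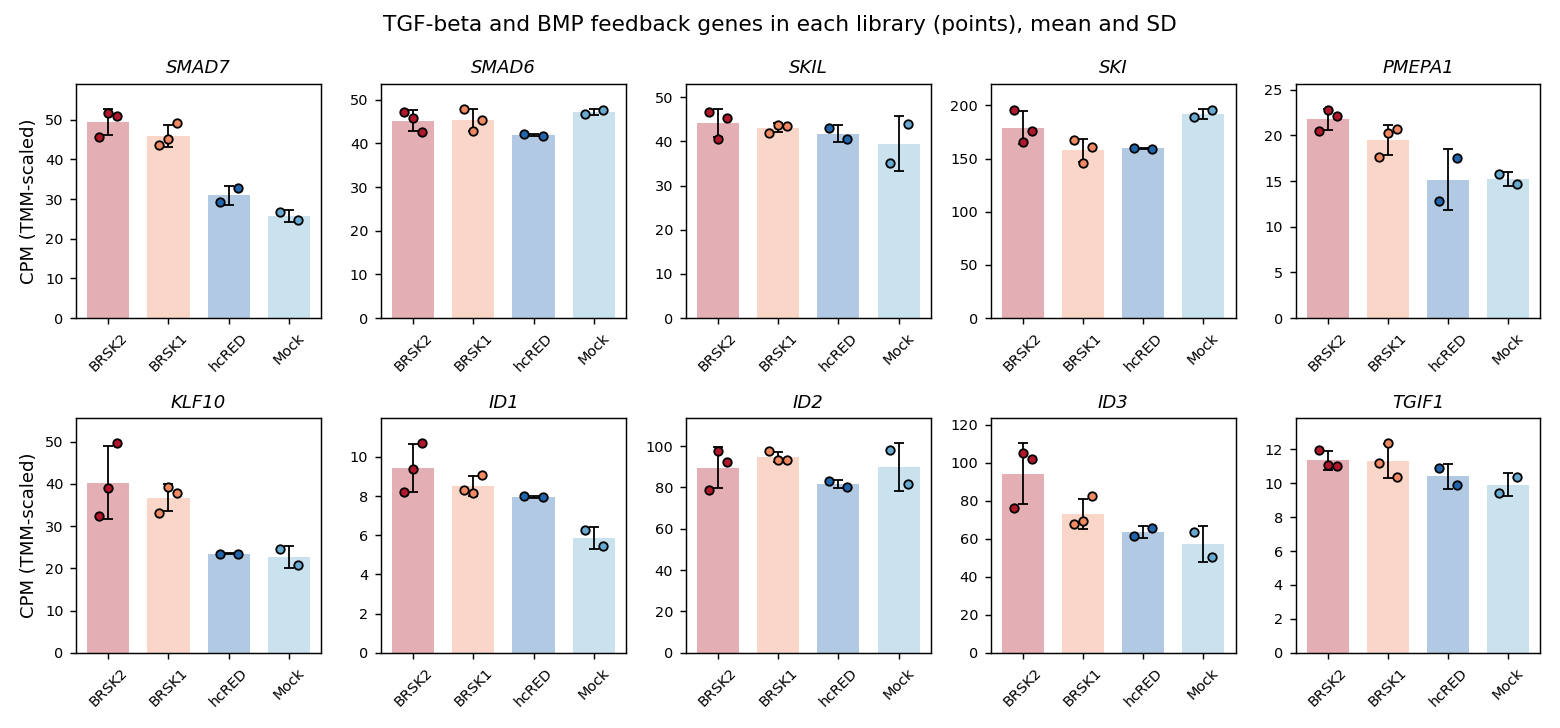
Level of each of the 10 genes in CPM (TMM-scaled) on axes that start at 0, with a point per library, a bar at the group mean and a whisker of 1 SD, for BRSK2 and BRSK1 (3 libraries each) and hcRED and Mock (2 each). For SMAD7 the BRSK2 libraries sit between 45.6 and 51.8 CPM and the control libraries between 24.8 and 32.7 CPM, while for SMAD6, SKIL, SKI and ID2 the kinase points overlap those of hcRED and Mock pooled.

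SMAD7, which recruits ubiquitin ligases to the type I receptor and blocks both pathways, lies on hg38 chromosome 18 (48919853 to 48950711, minus strand). It stood at 45.6, 51.8 and 50.9 CPM in the BRSK2 libraries and 43.7, 45.1 and 49.1 CPM in the BRSK1 libraries, against 29.3 and 32.7 CPM in hcRED and 26.9 and 24.8 CPM in Mock. Every kinase library was above every control library, and the kinase groups overlapped. The log2 fold change was 0.81 ± 0.08 (SE) with BRSK2, or 1.75-fold, and 0.70 ± 0.08 with BRSK1, or 1.63-fold. Ordered by p, SMAD7 was gene 9 of the 16936 for BRSK2 and gene 4 for BRSK1.

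SMAD6, its paralog with a preference for the BMP branch, lies on chromosome 15 (66702228 to 66782848, plus strand). It stood at 47.3, 45.7 and 42.6 CPM with BRSK2 and 47.9, 42.8 and 45.4 CPM with BRSK1, against 42.2 and 41.8 CPM in hcRED and 46.6 and 47.7 CPM in Mock. Both kinase groups lay above both hcRED libraries and overlapped the Mock libraries. The log2 difference was 0.02 with a 95% interval of -0.12 to 0.17 for BRSK2 and 0.03 (-0.12 to 0.17) for BRSK1, intervals that end well below the change of SMAD7.

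The corepressors did not pass the threshold with either kinase. SKI, on chromosome 1 (2228695 to 2310119, plus strand), is the founding member of its family and binds SMAD complexes in the nucleus. It stood at 196, 165 and 176 CPM with BRSK2 and 167, 146 and 161 CPM with BRSK1, against 160.0 and 159 CPM in hcRED and 189 and 195 CPM in Mock. BRSK2 replicate 1 was level with the highest control, BRSK1 replicate 2 was below all controls, and the other kinase libraries lay within the control range. The log2 difference was 0.03 ± 0.06 for BRSK2 and -0.15 ± 0.06 for BRSK1. SKIL, the closest relative of SKI (chromosome 3, 170357678 to 170396835, plus strand), ranged over 40.5 to 46.7 CPM with BRSK2 and 42.0 to 43.8 CPM with BRSK1, against 40.4 to 43.1 CPM in hcRED and 35.1 to 43.9 CPM in Mock. Its log2 difference was 0.12 ± 0.08 for BRSK2 and 0.09 ± 0.08 for BRSK1. TGIF1, a homeodomain repressor of SMAD targets (chromosome 18, 3411608 to 3459978, plus strand), stood at 11.99, 11.07 and 11.005 CPM with BRSK2 and 11.2, 12.4 and 10.4 CPM with BRSK1, against 10.9 and 9.89 CPM in hcRED and 9.44 and 10.4 CPM in Mock. The BRSK2 libraries cleared the highest control by less than the spread among themselves, and its log2 difference was 0.16 ± 0.12 for BRSK2 and 0.15 ± 0.11 for BRSK1.

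PMEPA1, on chromosome 20 (57648392 to 57711536, minus strand), also binds ubiquitin ligases through its cytoplasmic tail. It stood at 20.5, 22.7 and 22.1 CPM with BRSK2 and 17.6, 20.3 and 20.7 CPM with BRSK1, against 12.8 and 17.5 CPM in hcRED and 15.7 and 14.7 CPM in Mock. The kinase libraries were all above the controls, with BRSK1 replicate 1 and hcRED replicate 3 almost level. The log2 fold change was 0.52 ± 0.11 with BRSK2 and 0.36 ± 0.11 with BRSK1. With BRSK1 the call was lost when replicate 2 or 3 of BRSK1, replicate 3 of BRSK2, replicate 1 of hcRED or either Mock library was left out. The log2 fold changes were then 0.26 to 0.39. The antisense gene NKILA overlaps PMEPA1 and had 4 to 27 counts, against at least 271 for PMEPA1, and without a stated strand setting reads of the pair cannot be told apart.

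KLF10, once named TIEG for its early induction by TGF-beta and a repressor of SMAD7 transcription, lies on chromosome 8 (102648779 to 102655902, minus strand). It stood at 32.3, 38.9 and 49.6 CPM with BRSK2 and 33.1, 39.2 and 37.8 CPM with BRSK1, against 23.4 and 23.5 CPM in hcRED and 24.5 and 20.8 CPM in Mock. No kinase library overlapped a control, and the BRSK2 libraries spread more widely than any other group. The log2 fold change was 0.80 ± 0.11 with BRSK2, or 1.74-fold, and 0.67 ± 0.11 with BRSK1, or 1.59-fold. KLF10 was lowest in the BRSK2 library in which BRSK2 held 6.99% of counts and highest in that with 10.4%. Of the other called members ID1 had the same order, while SMAD7, PMEPA1 and ID3 were highest in replicate 2, at 9.08%. With BRSK1, KLF10 was at 39.2 CPM where the kinase held 6.52% of counts and at 37.8 CPM where it held 6.96%. The part of kinase level in this was not tested.

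The ID genes are close relatives in sequence and were measured at different levels and fold changes. ID3, on chromosome 1 (23557918 to 23559794, minus strand), stood at 76.1, 105.0 and 102 CPM with BRSK2 and 67.9, 69.2 and 82.3 CPM with BRSK1, against 61.4 and 65.7 CPM in hcRED and 63.8 and 50.6 CPM in Mock. BRSK2 replicates 2 and 3 were above all other libraries, BRSK2 replicate 1 lay within the BRSK1 range, and all kinase libraries were above the controls. The log2 fold change was 0.65 ± 0.12 with BRSK2 and 0.28 ± 0.12 with BRSK1. The BRSK1 difference was not called but passed without BRSK2 replicate 1, at a log2 fold change of 0.28. ID1, on chromosome 20 (31605283 to 31606515, plus strand), stood at 8.22, 9.39 and 10.7 CPM with BRSK2 and 8.33, 8.15 and 9.09 CPM with BRSK1, against 8.01 and 7.93 CPM in hcRED and 6.26 and 5.45 CPM in Mock. The kinase libraries were above the controls, but the lowest of them cleared hcRED by little. The log2 fold change was 0.46 ± 0.13 with BRSK2, called, and 0.32 ± 0.13 with BRSK1, not called. The BRSK2 call for ID1 was lost when replicate 2 or 3 of BRSK2, either hcRED library or replicate 3 of Mock was left out. The log2 fold changes were then 0.37 to 0.47. ID2, on chromosome 2 (8678845 to 8684453, plus strand), ranged over 78.7 to 97.7 CPM with BRSK2 and 93.3 to 97.5 CPM with BRSK1, against 80.4 to 83.3 CPM in hcRED and 81.6 to 97.9 CPM in Mock. The BRSK2 libraries overlapped both control groups, and the BRSK1 libraries lay above hcRED and within the Mock range. There were 3 to 14 counts for its antisense gene ID2-AS1 against at least 1437 for ID2, and its log2 difference was 0.07 ± 0.07 for BRSK2 and 0.14 ± 0.07 for BRSK1.

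**Figure D2:**
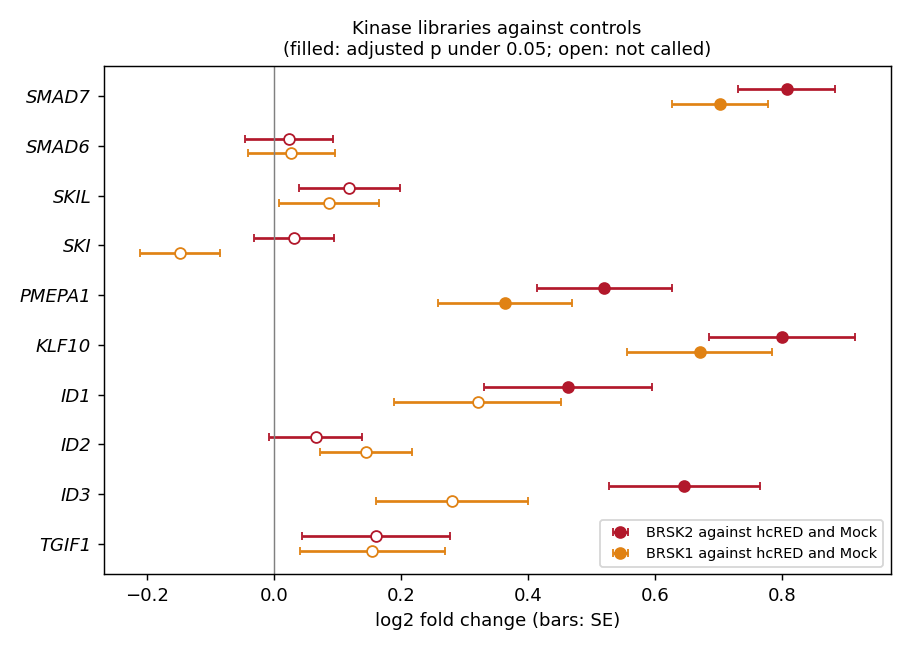
Log2 fold change of each of the 10 genes against the mean of hcRED and Mock, with BRSK2 in red and BRSK1 in orange, whiskers of 1 SE, and filled points for an adjusted p under 0.05 over all tested genes. SMAD7 and KLF10 lie between 0.67 and 0.81 with both kinases, and SMAD6, SKIL, SKI, ID2 and TGIF1 have open points throughout.

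With BRSK2 all 10 log2 fold changes were above 0, as were those of 8556 of the 16936 tested genes. With library totals alone those of SMAD6, SKI and ID2 were -0.08, -0.07 and -0.04. With BRSK1 9 of 10 were above 0, SKI being the exception, as were 8568 of the 16936 tested genes. SMAD6 was at -0.01 with BRSK1 and library totals alone. The authors' deposited table for BRSK2 lists 4 of the members, with log2 fold changes of 0.81 for SMAD7, 0.78 for KLF10, 0.65 for ID3 and 0.54 for PMEPA1. Their deposited table for BRSK1 lists SMAD7 at 0.71 and KLF10 at 0.67.

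Per kilobase of the deposited gene length, ID3, ID2 and SKI led in every group and TGIF1 was last. The order between genes depends on those lengths, which run from 1233 bases for ID1 to 8563 for SMAD6. How the lengths were derived was not stated, so the order is a description only. In BRSK2 libraries ID3 stood at 52.5 ± 8.81 CPM per kb and ID2 at 40.7 ± 4.46 (SD, n = 3), neighbours whose ranges of mean ± SD overlapped. Next came SKI at 29.5 ± 2.55, SMAD7 at 13.4 ± 0.91, KLF10 at 10.1 ± 2.17 and ID1 at 7.65 ± 1.00 CPM per kb. SKIL (5.67 ± 0.42) and SMAD6 (5.28 ± 0.28) did not differ beyond their spread, and PMEPA1 was at 3.87 ± 0.21 and TGIF1 at 1.38 ± 0.07. In BRSK1 libraries ID2 (43.0 ± 1.07) and ID3 (40.7 ± 4.44) overlapped at the top, and the order below them was that of BRSK2 libraries. In Mock libraries ID2 stood at 40.7 ± 5.22, ID3 at 31.8 ± 5.18, SKI at 31.6 ± 0.76 and SMAD7 at 6.99 ± 0.40 CPM per kb (SD, n = 2), and KLF10, SMAD6, SKIL and ID1 lay between 5.67 and 4.75, each overlapping its neighbour in that order.  In hcRED libraries SMAD7 was at 8.39 ± 0.66 and SMAD6 at 4.90 ± 0.03 CPM per kb (SD, n = 2). Before division by length their order was the reverse, with means of 31.0 CPM for SMAD7 and 42.0 CPM for SMAD6.

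The control groups did not stand at the same level for every member, so the kinases were also set against each alone. With BRSK2, SMAD7 was higher by 0.67 ± 0.09 against hcRED and 0.94 ± 0.09 against Mock, KLF10 by 0.78 ± 0.14 and 0.82 ± 0.14, and PMEPA1 by 0.52 ± 0.13 against either, and all 6 were called. ID3 was at 0.57 ± 0.14 against hcRED, which was not called, and 0.72 ± 0.15 against Mock, which was. ID1 depended most on the control, at 0.24 ± 0.16 against hcRED, not called, and 0.69 ± 0.16 against Mock, called. With BRSK1, SMAD7 was called against hcRED (0.57 ± 0.09) and Mock (0.83 ± 0.09), and so was KLF10 (0.65 ± 0.14 and 0.69 ± 0.14). PMEPA1 was at 0.37 ± 0.13 against hcRED and 0.36 ± 0.13 against Mock and was called against neither. ID1 was called against Mock only (0.54 ± 0.16, against 0.10 ± 0.16 for hcRED), and SKI was called lower against Mock only (-0.28 ± 0.07, against -0.02 ± 0.08 for hcRED).

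**Figure D3:**
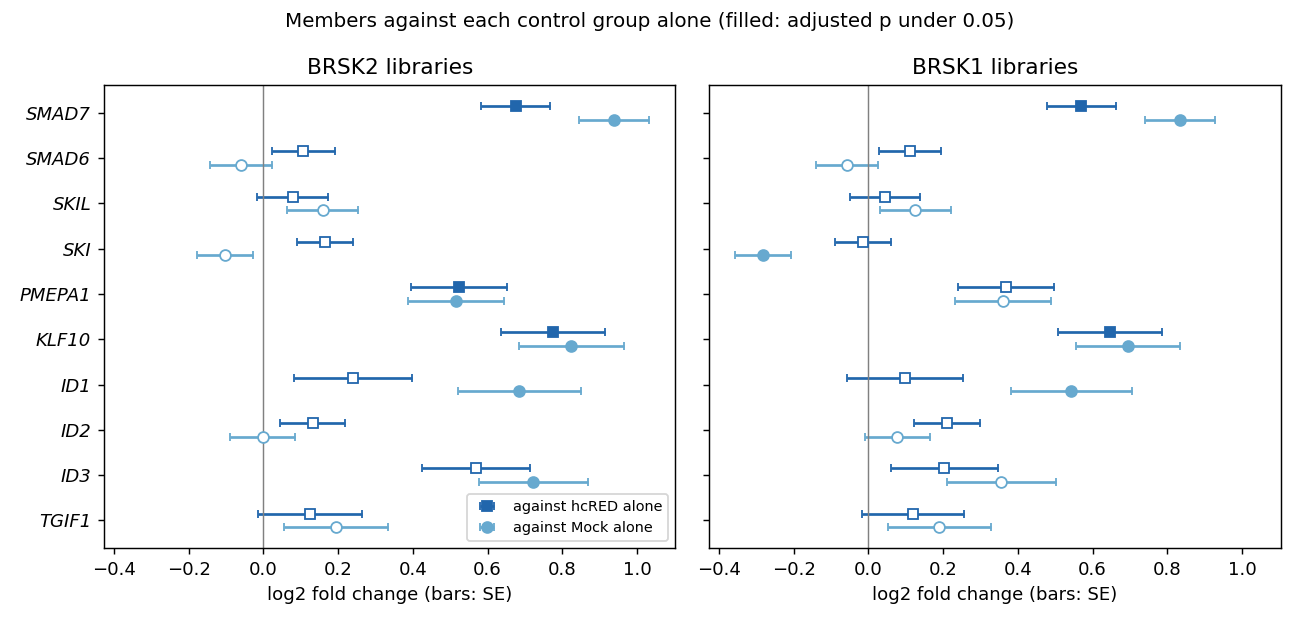
Log2 fold change of each of the 10 genes in BRSK2 libraries (left) and BRSK1 libraries (right) against hcRED alone (squares) and Mock alone (circles), with whiskers of 1 SE and filled points for an adjusted p under 0.05. SMAD7 and KLF10 are filled in all 4 comparisons, and for ID1 the BRSK2 values are 0.24 against hcRED and 0.69 against Mock.

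To see whether the control groups differed in these genes, hcRED was compared with Mock. The labels do not describe the handling of Mock, so the red fluorescent protein and other handling cannot be told apart. None of the 10 members was called by edgeR's test or by DESeq2, which gave an adjusted p for 8 of them, while 0.0295% of all tested genes were called by edgeR's test. An unadjusted p under 0.05 was found for 3 of the 10 members and for 8.95% of all tested genes. SMAD7 was at 0.26 ± 0.10 (adjusted p = 0.436), ID1 at 0.45 ± 0.18 (adjusted p = 0.455) and SKI at -0.27 ± 0.08 (adjusted p = 0.291). Both hcRED libraries were above both Mock libraries for SMAD7 and ID1 and below them for SKI and SMAD6. With 2 libraries in each group such an order arises easily, and its share over all tested genes was not counted. The log2 difference of KLF10 between hcRED and Mock was 0.05 with a 95% interval of -0.28 to 0.38, and that of PMEPA1 was -0.01 with an interval of -0.30 to 0.29.

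The direct comparison of the kinases asks whether BRSK2 and BRSK1 differed in these genes. No member was called by edgeR's test, where 0.348% of tested genes were called. ID3 and SKI had an unadjusted p under 0.05, 2 of 10, as had 12.4% of all tested genes. ID3 was at 0.37 ± 0.13 for BRSK2 over BRSK1 (95% interval 0.09 to 0.64, adjusted p = 0.267), and it was the single member called by DESeq2, which gave an adjusted p for 6 of the 10. ID3 was also called without BRSK2 replicate 1, where the difference was 0.50 and the adjusted p of edgeR's test was 0.0193. SKI was at 0.18 ± 0.07 (0.04 to 0.32, adjusted p = 0.26). For all 10 members the BRSK2 and BRSK1 libraries overlapped. With so few libraries such overlap arises easily, and its share over all tested genes was not counted. The intervals of the difference were -0.06 to 0.27 for SMAD7, -0.12 to 0.38 for KLF10, -0.07 to 0.39 for PMEPA1 and -0.14 to 0.43 for ID1, and differences of that size lie within the precision of these libraries.

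The rest of the pathways was described from 7 lists of 101 genes ordered by role, of which 89 were tested. With BRSK2 10 of the 89 were called higher and 6 lower, at a median of 0.07. With BRSK1 10 were higher and 3 lower, at a median of 0.03. Medians over all tested genes were 0.00. Of all tested genes, 4.77% were called higher and 3.05% lower with BRSK2, and 3.77% and 2.66% with BRSK1. The lists are small, so 1 or 2 calls in a list are not a result about that list. With BRSK2 1 of 19 ligands was called higher and 2 lower, 3 of 13 receptors lower, 1 of 6 receptor-activated and common SMADs higher, 1 of 12 ubiquitin ligases and other SMAD regulators lower, 2 of 5 paralogs of the members higher, and 6 of 19 other target genes higher. With BRSK1 2 of 19 ligands were higher and 2 lower, 1 receptor was lower, 1 SMAD, 1 of 15 antagonists and 1 SMAD regulator were higher, and so were 2 paralogs and 3 target genes. Of the 15 extracellular and membrane antagonists, 3 had an unadjusted p under 0.05 with BRSK2 (20%, against 23% of all tested genes) and did not pass the adjusted threshold.

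Among the ligands, GDF15, a distant family member that signals through the GFRAL receptor, stood at 0.931, 1.87 and 1.65 CPM with BRSK2 and 1.89, 2.30 and 2.66 CPM with BRSK1, against 1.08 and 0.783 CPM in hcRED and 0.606 and 0.396 CPM in Mock. The BRSK1 libraries of GDF15 were above every control, and BRSK2 replicate 1 was below hcRED replicate 1. It rose by 1.11 ± 0.33 on the log2 scale with BRSK2 (edgeR, adjusted p = 0.0406) and by 1.73 ± 0.31 with BRSK1 (adjusted p = 0.00235). The BRSK2 call for GDF15 was lost, at adjusted p of 0.0508 to 0.212, when replicate 2 or 3 of either kinase, either hcRED library or replicate 3 of Mock was left out. GDF11, a ligand of the activin branch, fell by 0.32 ± 0.08 on the log2 scale with BRSK2 (edgeR, adjusted p = 0.0136) and by 0.37 ± 0.08 with BRSK1 (adjusted p = 0.00699). Leaving out replicate 2 of BRSK2 (adjusted p = 0.0952), replicate 3 of BRSK2 (0.131) or replicate 1 of hcRED (0.0516) ended the BRSK2 call for GDF11. Against hcRED alone neither ligand was called, with adjusted p of 0.385 for GDF15 and 0.0776 for GDF11 with BRSK2, and of 0.104 and 0.0669 with BRSK1.

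Among the receptors, TGFBR3, the betaglycan co-receptor that presents ligand, stood at 27.4, 23.0 and 23.2 CPM with BRSK2 and 29.2, 26.7 and 27.1 CPM with BRSK1, against 35.2 and 30.4 CPM in hcRED and 31.5 and 41.3 CPM in Mock. Every kinase library was below every control library. The log2 fold change was -0.49 ± 0.10 with BRSK2 (edgeR, adjusted p = 0.00268) and -0.32 ± 0.09 with BRSK1 (adjusted p = 0.0421). The BRSK1 call was lost, at adjusted p of 0.0501 to 0.206, without BRSK2 replicate 3, without any 1 BRSK1 library, without hcRED replicate 1 or without Mock replicate 3, and it was lost against hcRED alone (-0.25, adjusted p = 0.314). SMAD9, a receptor-activated SMAD of the BMP branch, stood at 29.2, 31.8 and 36.3 CPM with BRSK2 and 33.4, 38.1 and 36.4 CPM with BRSK1, against 23.4 and 25.1 CPM in hcRED and 19.9 and 23.9 CPM in Mock. No kinase library of SMAD9 overlapped a control. Its log2 fold change was 0.49 ± 0.09 with BRSK2 (edgeR, adjusted p = 0.00147) and 0.64 ± 0.09 with BRSK1 (adjusted p = 0.000224). Of the receptors, BMPR2 and BMPR1A were also called lower with BRSK2 (edgeR, adjusted p = 0.044 and 0.0454). They were called neither against hcRED alone (0.199 and 0.114) nor against Mock alone (0.0613 and 0.12). The receptors did not fall as a list, with 7 of the 13 tested above 0 with BRSK2 and 8 with BRSK1.

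Paralogs of the members were measured too, and of the 5 tested, 3 were not called with either kinase. KLF11, a paralog of KLF10 also induced early by TGF-beta, stood at 29.0, 38.3 and 36.1 CPM with BRSK2 and 33.1, 35.3 and 38.9 CPM with BRSK1, against 23.6 and 23.7 CPM in hcRED and 23.1 and 22.03 CPM in Mock. The kinase and control libraries of KLF11 did not overlap, and it rose by 0.58 ± 0.09 with BRSK2 (edgeR, adjusted p = 0.000386) and by 0.63 ± 0.09 with BRSK1 (adjusted p = 0.000289). ID4, the remaining ID protein, rose by 0.37 ± 0.07 with BRSK2 (edgeR, adjusted p = 0.00147) and by 0.25 ± 0.07 with BRSK1 (adjusted p = 0.0267). The BRSK1 call for ID4 was lost, at adjusted p of 0.0547 to 0.171, without BRSK1 replicate 1, BRSK1 replicate 3, either hcRED library or Mock replicate 3, and against hcRED alone (0.0853) or Mock alone (0.114).

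Other target genes of the pathways included MSX2, a homeobox gene of BMP signalling, which stood at 29.5, 30.2 and 34.5 CPM with BRSK2 and 28.1, 34.6 and 35.3 CPM with BRSK1, against 19.4 and 22.1 CPM in hcRED and 17.01 and 20.1 CPM in Mock. Its kinase libraries were all above the controls, and it rose by 0.68 ± 0.10 with BRSK2 (edgeR, adjusted p = 0.000122) and by 0.74 ± 0.10 with BRSK1 (adjusted p = 9.53e-05). JUNB, an AP-1 subunit, was the gene of the 89 called between the kinases. It stood at 21.2, 29.1 and 24.6 CPM with BRSK2, against 12.2, 13.1 and 13.7 CPM with BRSK1, 14.9 and 14.1 CPM in hcRED and 15.1 and 13.1 CPM in Mock. The BRSK2 libraries of JUNB stood apart from all others, by 0.80 ± 0.11 against the controls (edgeR, adjusted p = 5.19e-05) and by 0.94 ± 0.12 against BRSK1 (adjusted p = 0.000134). CDKN1A, the cell cycle inhibitor p21, rose by 0.34 ± 0.08 with BRSK2 (edgeR, adjusted p = 0.00964) and by 0.48 ± 0.08 with BRSK1 (adjusted p = 0.000872). Leaving out replicate 3 of BRSK2 (adjusted p = 0.117) or replicate 1 of hcRED (0.0581) ended the BRSK2 call for CDKN1A. Against hcRED alone CDKN1A was called with neither kinase, where its BRSK2 difference was 0.21 (adjusted p = 0.242) and its BRSK1 difference 0.35 (0.0677). Between hcRED and Mock none of the 89 genes was called by edgeR's test and DESeq2 called 3, with 12 (13.5%) at an unadjusted p under 0.05, against 8.95% of all tested genes.

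**Figure D4:**
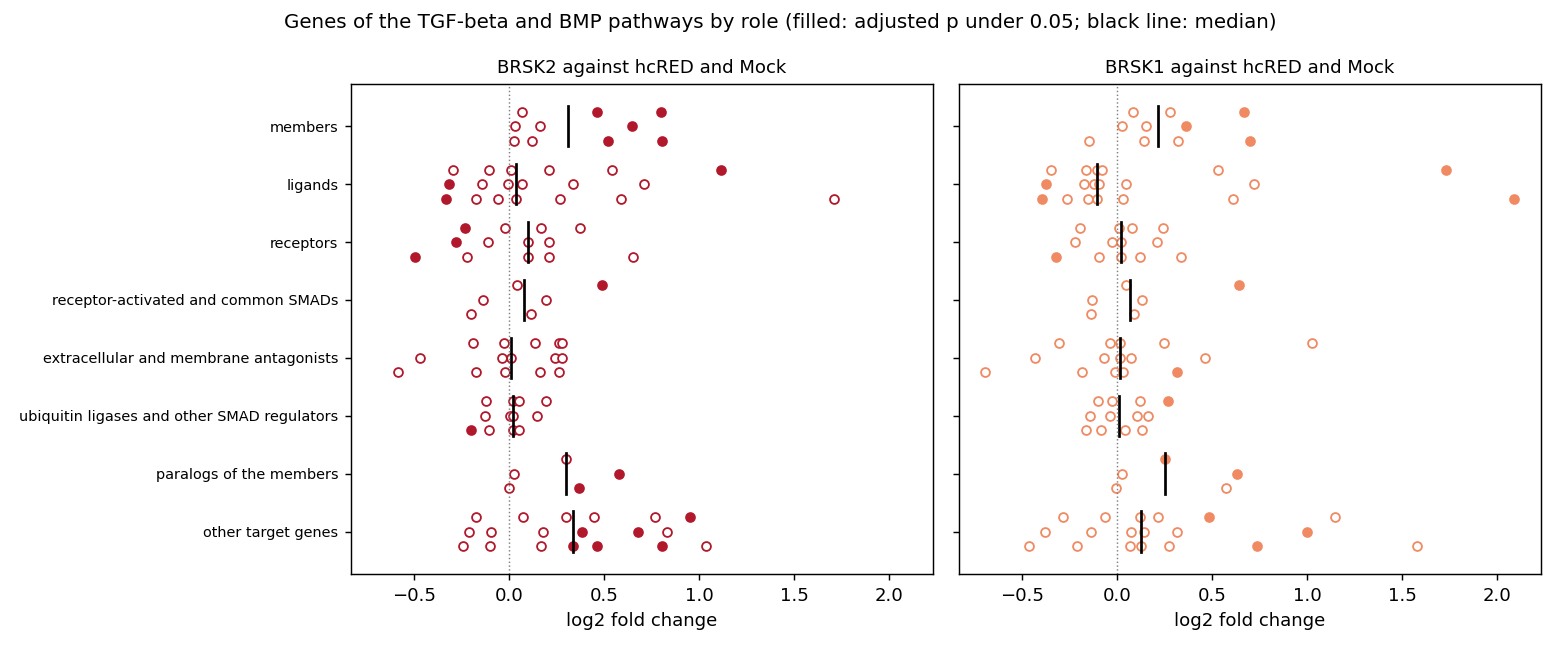
Log2 fold change of every tested gene of the members and the 7 pathway lists, by role, for BRSK2 (left) and BRSK1 (right) against hcRED and Mock, with filled points for an adjusted p under 0.05 and a black line at each list's median. Filled points lie on the lower side among receptors, where TGFBR3 is at -0.49 with BRSK2 and -0.32 with BRSK1. They lie on the higher side among paralogs and other target genes. Over all 13 tested receptors the median is 0.10 with BRSK2 and 0.02 with BRSK1, with 7 and 8 above 0.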

How the data were processed

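The authors deposited raw read counts per gene, 1 table per kinase, and their 4 control libraries held identical counts in both (0 differed), so the tables were joined into 10 libraries with 0 columns unused. STAR, edgeR, limma and hg38 are named per the submitters' processing notes, while the counting tool, strand setting and gene annotation version were not given in the sources used here. Gene lengths and positions are those deposited. The authors also deposited log2 CPM values, used as a check, and result tables with log2 fold changes, p-values and limma scores, per the file headers, that list only genes passing their threshold.

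Samples were grouped by the genotype in the labels. edgeR 4.0.16 in R 4.3.3 was run with TMM factors and filterByExpr (minimum count 10, minimum total 15), and 1 robust quasi-likelihood fit of 4 group means held all 10 libraries (biological coefficient of variation 8.06%). Contrasts set each kinase against the average of both control group means, the kinases against each other and hcRED against Mock, with Benjamini-Hochberg adjustment over 16936 genes and a threshold of 0.05. The SE is the absolute log2 fold change over the square root of F, and 95% intervals come from the same fit. A prior count of 2 entered only the log2 CPM behind correlations. Alternatives were scaling by RLE factors, by totals or without the kinase genes, a filter of 1 CPM in 3 libraries or none, DESeq2 1.42.0, an adjusted p under 0.01, the replicate number as a block, a fit of only the groups compared, each control alone and each library left out, where a group of 1 took the spread of the others. For the pathway genes these were added after the data were seen. Steps were tested on simulated data. Plots used Python 3.11.15 and matplotlib 3.10.9.

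The members and lists were chosen with earlier results of these data known. Named genes are the 10 members, up to 4 genes per pathway list by smallest p among those called in at least 1 comparison, and the 5 genes most like SMAD7. Where fewer than 4 were named, they were taken in order of p and the rest were counted.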

Additional observations from a re-analysis of the deposited data

How the results depend on the processing

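SMAD7 and KLF10 were called in 21 of 21 alternatives with either kinase, PMEPA1 in 21 with BRSK2 and 11 with BRSK1, ID3 in 20 and 4, and ID1 in 13 and 1. Members called with BRSK2 (5) were 3 against hcRED alone and 4 to 5 with a library left out, and with BRSK1 (3) they were 2 to 4 with a library left out. Between the kinases 1 member was called without a filter, 1 by DESeq2 and 0 to 1 with a library left out. All genes called with BRSK2 (1325) were 474 at an adjusted p under 0.01, 606 against hcRED alone, 3001 with library totals alone (494 higher and 2507 lower, against 808 and 517, with the median of all genes at -0.102) and 346 (without BRSK2 replicate 3) to 2211 (without BRSK2 replicate 1). With BRSK1 (1089) they were 256 at 0.01, 133 against hcRED alone and 204 (without BRSK1 replicate 3) to 1751 (without BRSK2 replicate 1), and library totals gave 463 higher and 733 lower, against 638 and 451. Between the kinases (59) they were 6 at 0.01, 206 with totals, 188 without a filter, 190 by DESeq2, 20 with only the groups compared and 7 to 64 with a library left out. Between hcRED and Mock (5) they were 0 at 0.01, 128 without a filter, 3 with 1 CPM, 52 by DESeq2, 0 with only the groups compared and 0 to 49 with a library left out. Pathway genes called with BRSK2 (16) were 8 at 0.01, 9 against hcRED alone, 10 with only the groups compared and 7 to 19 with a library left out. With BRSK1 (13) they were 7 at 0.01, 4 against hcRED alone and 8 to 17. Between the kinases (1) they were 2 with totals, 3 without a filter, 2 by DESeq2 and 1 to 2, and between hcRED and Mock (0) they were 3 without a filter, 3 by DESeq2 and 0 to 2. The labels do not say what the replicate numbers share. Of 12 same-numbered pairs, 2 correlated over 0.1 (range -0.0511 to 0.161). Pairs with different numbers were not compared, so a shared batch cannot be told from none. With the replicate number as a block the genes called were 2153 with BRSK2, 1999 with BRSK1, 267 between the kinases and 434 between hcRED and Mock. SKI was the 1 member called between hcRED and Mock with the block. Pathway genes were then 4 between the kinases and 4 between hcRED and Mock. Only members that were not called changed sign. With BRSK2 these were ID2 (-0.0016 against Mock alone, -0.040 with totals), SMAD6 (-0.061, -0.081, and -0.010 to 0.063 with a library left out) and SKI (-0.10, -0.073, and -0.039 to 0.090), and with BRSK1 SMAD6 (-0.057, -0.010, and -0.013 to 0.069). Between the kinases they were SKIL (-0.034 with totals) and TGIF1 (-0.061), and with a library left out SKIL (-0.0088 to 0.094), TGIF1 (-0.054 to 0.075), ID2 (-0.15 to 0.0085), SMAD6 (-0.043 to 0.038) and KLF10 (-0.040 without BRSK2 replicate 3, to 0.27). Between hcRED and Mock they were PMEPA1 (0.043 with totals, 0.10 with the block), and with a library left out PMEPA1 (-0.26 to 0.20), ID2 (-0.26 to 0.0014), ID3 (-0.0030 to 0.33), SKIL (-0.073 to 0.25), KLF10 (-0.063 to 0.17) and TGIF1 (-0.0031 to 0.14). The cause was not tested. The lowest member counts were 110 for ID1 and 173 for TGIF1.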

Other observations

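Across the 10 libraries, the log2 CPM of SMAD7 ran most closely with that of KLF10 among the other members (Pearson r = 0.93), followed by PMEPA1 (0.90), ID1 (0.87) and ID3 (0.86), and least with SMAD6 (-0.07) and SKI (-0.35). These values describe 10 libraries that share their group structure and are given with no p. Over all tested genes outside the set, the closest 5 were PIM1, a serine/threonine kinase (0.991), FANCG (0.982), DUSP8, a phosphatase of MAP kinases (0.980), FANCE (0.980) and FAM3A (0.978), where FANCG and FANCE are subunits of the Fanconi anaemia core complex. FANCE stood at 40.6, 42.9 and 48.5 CPM with BRSK2 and 38.9, 40.4 and 40.6 CPM with BRSK1, against 30.2 and 30.4 CPM in hcRED and 26.5 and 25.3 CPM in Mock. FANCG stood at 51.5, 60.5 and 60.4 CPM with BRSK2 and 51.4, 53.0 and 55.5 CPM with BRSK1, against 42.7 and 44.8 CPM in hcRED and 40.9 and 37.5 CPM in Mock. In all 5 genes every kinase library was above every control library, and both hcRED libraries were above both Mock libraries, as they were for SMAD7. The 5 were picked for likeness to SMAD7 over these same libraries, so the shared order largely follows from the selection and is not a separate result.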
